A study of Mus musculus with 12 samples.

Results

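The genes described here are 10 cadherins (Cdh2, Cdh4, Cdh6, Cdh7, Cdh8, Cdh9, Cdh10, Cdh11, Cdh12 and Cdh13), taken by symbol from a table of 15759 rows of gene expression in the brains of mice with spinocerebellar ataxia type 1 (SCA1). All 10 were in the table, and all 10 passed the filter of a mean of at least 10 normalized counts that left 15369 tested genes. SCA1 KI mice carry an Atxn1 allele that encodes 154 glutamines, under its own regulatory elements, beside an allele with 2 (Atxn1 154Q/2Q), and wild-type (WT) littermates served as controls. All mice were C57BL/6J and 12 weeks old, and poly-adenylated RNA of whole macrodissected cortex and of whole cerebellum was sequenced in 3 libraries for each genotype in each region, which makes 4 groups. The labels describe males, whereas the methods describe males and females together. Nothing states whether cortex and cerebellum came from the same mice, and the cerebellar libraries are described as an earlier data set, so region and sequencing run cannot be told apart.

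Cadherins are adhesion proteins of the plasma membrane that bind one another across the cell-cell gap in the presence of calcium. Inside the cell, beta-catenin and p120-family catenins bind their tails and link them to actin through alpha-catenins. Neurons of a given nucleus or layer carry particular combinations of cadherins, which take part in sorting cells, choosing partners and building synapses. Cdh2 (N-cadherin) and Cdh4 (R-cadherin) are classical cadherins of type I. Cdh6 to Cdh12 are of type II, and type II cadherins fall into groups by the partners they bind, with Cdh6, Cdh9 and Cdh10 in 1 group, Cdh8 and Cdh11 in another, and Cdh7 and Cdh12 in yet another. Cdh13 (T-cadherin) is neither, since it is held in the membrane by a lipid anchor and lacks the tail that catenins bind, so the name of the set does not strictly cover it.

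Values are normalized counts, that is, reads on a gene scaled by 1 factor for each library. Libraries held 29520855 to 51311309 reads on genes and are named by the letter or number of their column: B, C and D for WT cortex, A, E and F for SCA1 KI cortex, 2, 4 and 6 for WT cerebellum, and 1, 3 and 5 for SCA1 KI cerebellum. LFC is the difference between group means of log2(normalized count + 1) fitted with limma. A gene passed the test at an adjusted p under 0.05 over all tested genes with an absolute LFC over 0.25. Atxn1 itself, whose counts do not measure the repeat, had 7370 ± 815 normalized counts (SD, n = 3) in WT cortex and 6040 ± 1337 (SD, n = 3) in SCA1 KI cortex (LFC -0.31, adjusted p = 0.132). In the cerebellum it had 3679 ± 54.9 (SD, n = 3) in WT and 3889 ± 221 (SD, n = 3) in SCA1 KI (LFC 0.08, adjusted p = 0.837).

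The members that passed the test of genotype in the cerebellum were not those that passed in the cortex. In the cerebellum Cdh9 fell by 2.04 on the log2 scale and Cdh13 fell by 0.67, while Cdh7 rose by 0.45 and Cdh8 by 0.36. In the cortex Cdh12 fell by 0.53 and Cdh11 fell by 0.42, and no member rose. Tested directly, the genotype effect differed between the regions for Cdh9 and Cdh7. That difference did not pass for Cdh8, Cdh13, Cdh12 or Cdh11 (adjusted p from 0.0576 to 0.190). Of the 10 members, 2 passed as higher and 2 as lower in the cerebellum, against 0.917% and 4.44% of all tested genes. In the cortex 0 passed as higher and 2 as lower, against 4.82% and 10.8% of all tested genes. At an unadjusted p under 0.05, and with edgeR or DESeq2 on the recovered reads, the count of members higher in the cortex was also 0. The median LFC of the 10 members was -0.07 in the cerebellum and -0.02 in the cortex, beside -0.005 and -0.003 over all tested genes.

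**Figure D1:**
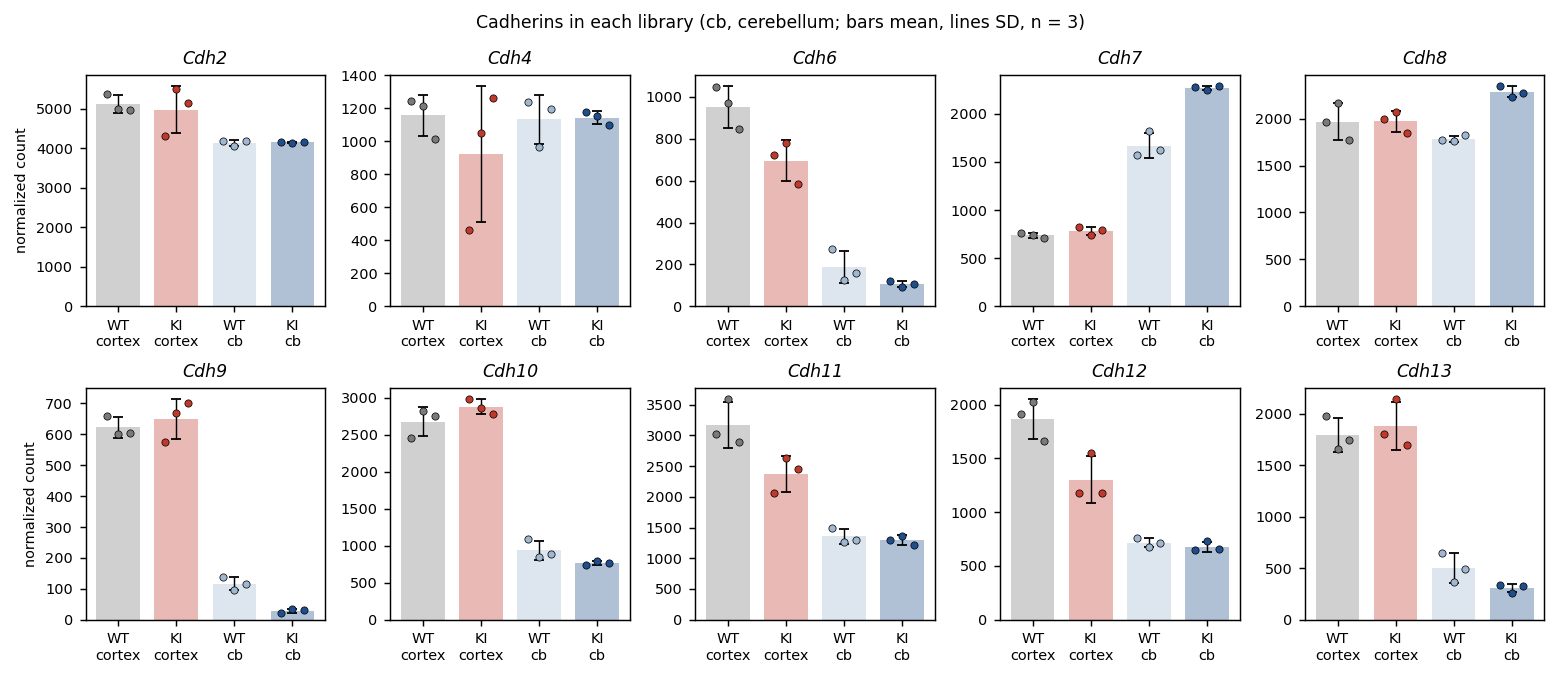
Normalized counts of the 10 cadherins in the 12 libraries. Each panel is a gene, points are libraries, bars are the means of 3 libraries and lines their SD; the y axis starts at 0 and differs between panels. Cdh9 lay at 20.2 to 33.6 in SCA1 KI cerebellum and at 96.5 to 139 in WT cerebellum, and Cdh12 lay lower in all 3 SCA1 KI cortex libraries than in the WT cortex libraries.

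Libraries of the 2 genotypes did not overlap for 3 members in the cortex, Cdh6, Cdh11 and Cdh12, all lower in SCA1 KI. In the cerebellum they did not overlap for 6 members, with Cdh7 and Cdh8 higher and Cdh6, Cdh9, Cdh10 and Cdh13 lower in SCA1 KI. Among all tested genes 30.9% did not overlap in the cortex and 31.8% in the cerebellum.

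**Figure D2:**
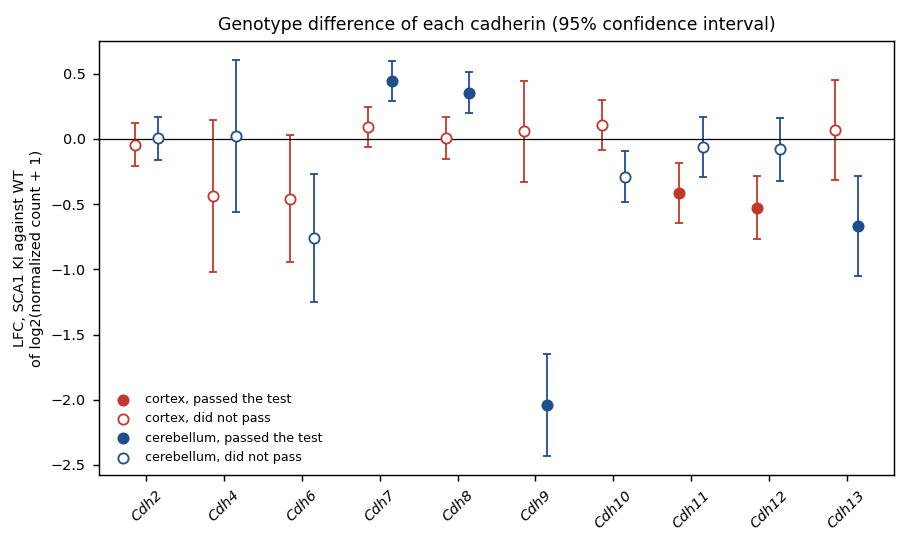
LFC of SCA1 KI against WT for each cadherin in cortex (red) and cerebellum (blue), on the scale of log2(normalized count + 1). Lines are 95% confidence intervals of the limma fit and filled points passed the test. Cdh9 in the cerebellum stands at -2.04, and the other members lie between -0.76 and 0.45.

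Cdh9, Cdh6 and Cdh10 form 1 of the binding groups, and Cdh9 is known for its part in matching the terminals of dentate granule cells to their targets in the hippocampus. Cdh9 lies on chromosome 15 from 16728756 to 16857094 (GRCm38, plus strand), and its exons overlap those of Gm49127 on the other strand over 224 bp. Its normalized count in the WT cerebellum was 139, 96.5 and 115 in libraries 2, 4 and 6, and 20.2, 33.6 and 30.0 in SCA1 KI libraries 1, 3 and 5. All 3 SCA1 KI libraries lay below every WT library, with 24 to 49 reads against 79 to 152. The LFC was -2.04 (standard error 0.18, adjusted p = 3.46e-05), and Cdh9 passed in all 9 ways of fitting that kept all libraries and in all 12 fits that left out 1 library (LFC -2.18 to -1.83). In the cortex Cdh9 had 661, 601 and 605 normalized counts in WT libraries B, C and D and 577, 669 and 703 in SCA1 KI libraries A, E and F. These ranges overlapped, with an LFC of 0.06 and a 95% interval from -0.33 to 0.45. The genotype effect on Cdh9 differed between the regions by 2.10 (standard error 0.25, adjusted p = 0.000665), cortex minus cerebellum.

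Cdh6 (K-cadherin), which marks subsets of neurons in several sensory circuits, lies on chromosome 15 from 13028701 to 13173675 (minus strand). In the cerebellum it had 276, 128 and 161 normalized counts in WT libraries 2, 4 and 6 and 121, 90.6 and 106 in SCA1 KI libraries 1, 3 and 5. WT library 2 was far above the others, and the gap between the genotypes was narrow. The LFC was -0.76 (95% interval -1.25 to -0.27, adjusted p = 0.0759), which did not pass with limma or edgeR (adjusted p = 0.0548) but passed with DESeq2 (adjusted p = 0.00672). Without WT cerebellum library 2 the LFC was -0.45 (adjusted p = 0.221), and without WT library 4 it was -0.996 and passed (adjusted p = 0.0146). In the cortex Cdh6 had 1045, 969 and 845 normalized counts in WT and 722, 779 and 586 in SCA1 KI, so that all SCA1 KI values were lower. That LFC was -0.46 (95% interval -0.95 to 0.03, adjusted p = 0.194), with an interval that includes 0.

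Cdh10 lies on the same chromosome from 18818947 to 19014236 (plus strand). Its normalized counts in the cerebellum were 1086, 850 and 882 in WT libraries 2, 4 and 6 and 735, 792 and 767 in SCA1 KI libraries 1, 3 and 5. The groups did not overlap, with an LFC of -0.29 (95% interval -0.48 to -0.09, adjusted p = 0.0912), and Cdh10 passed with DESeq2 alone among the 9 fits on all libraries (adjusted p = 0.0358). In the cortex its 3 SCA1 KI values of 2782 to 2982 overlapped the WT values of 2449 to 2824, with an LFC of 0.11 (95% interval -0.09 to 0.30).

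Promoter sequence from RefSeq (GRCm38.p6), the 250 bases before each start, was at hand for 6 of the 10 members in 8 windows. The windows of Cdh6 and Cdh9 are shown because both genes lay lower in every SCA1 KI cerebellar library, and because they share a run of 15 bases, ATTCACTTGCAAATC, which is in capitals. They are written 5′ to 3′ on the strand of the gene, and for Cdh9 only the 91 bases that precede the gene in GENCODE are given.
Cdh6, chr15:13173676-13173925, minus strand: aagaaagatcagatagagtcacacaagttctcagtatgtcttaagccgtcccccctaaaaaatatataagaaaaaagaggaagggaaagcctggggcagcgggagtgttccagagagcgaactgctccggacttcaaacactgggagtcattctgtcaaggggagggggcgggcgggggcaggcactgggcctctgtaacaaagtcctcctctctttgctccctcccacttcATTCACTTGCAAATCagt
Cdh9, chr15:16728665-16728755, plus strand: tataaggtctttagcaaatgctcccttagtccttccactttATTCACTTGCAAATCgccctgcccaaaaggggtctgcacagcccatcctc
The run was found as the longest that these 2 windows share, and no other pair of members was searched. Of 32851 promoter windows of the same length, searched on both strands, 2 held this run, those of Cdh6 and Cdh9. Both hold it by the way it was chosen, so this count does not measure how unusual the sharing is. The run ends 3 bases before the RefSeq start of Cdh6 and 194 bases before that of Cdh9, which is 35 bases before the start of Cdh9 in GENCODE. Cdh10, which also lay lower in every SCA1 KI cerebellar library, has a window without the run, and that window is not shown because it lies inside the annotated gene. The window of Cdh6 also held TTCATTCA, the reverse complement of TGAATGAA. That is an octamer bound by Capicua, a repressor that forms a complex with ataxin-1, and 5 of its bases lie within the shared run. The octamers searched were TGAATGAA, TGAATGGA, TCAATGAA and TCAATGGA on both strands, which 3.19% of all windows held. None of the windows of Cdh7, Cdh8, Cdh9, Cdh10 and Cdh12 held one. The windows of Cdh7, Cdh10 and Cdh12 lie wholly inside the annotated genes, which limits what an absence there can show. These are matches of letters, and no binding was measured.

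Cdh13, which is carried by endothelium and by several kinds of neurons, spans 1041 kb of chromosome 8 (118283733 to 119324921, plus strand). Its cerebellar normalized counts were 648, 362 and 489 in WT libraries 2, 4 and 6 and 339, 259 and 326 in SCA1 KI libraries 1, 3 and 5. The lowest WT library stood just above the highest SCA1 KI library. The LFC was -0.67 (standard error 0.18, adjusted p = 0.0475), the call closest to the threshold among the members. Cdh13 passed in 6 of the 9 fits on all libraries and in 1 of the 12 that left out a library. Without WT cerebellum library 2 the LFC was -0.46 (adjusted p = 0.168), and without WT library 4, the fit in which it passed, it was -0.88 (adjusted p = 0.00433). In the cortex Cdh13 had 1982, 1660 and 1741 normalized counts in WT and 1805, 2145 and 1696 in SCA1 KI, which overlapped (LFC 0.07, 95% interval -0.32 to 0.45). The difference of the genotype effect between the regions was 0.73 and did not pass (adjusted p = 0.101).

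Several lists of markers of other brain regions and of other cell types also differed between the genotypes in the cerebellar libraries. Of 8 listed markers of thalamus and midbrain, 7 were tested and all 7 were lower in SCA1 KI cerebellum, from -0.43 for Lef1 to -5.46 for Shox2, a transcription factor of thalamic and brainstem neurons. Their summed normalized count was 10316, 4984 and 6786 in WT libraries 2, 4 and 6 and 1494 to 1880 in SCA1 KI, and 1 of the markers, Shox2, was at 0 in SCA1 KI library 3. WT library 2 was the highest and WT library 4 the lowest of the WT libraries in this sum, as in Cdh9, Cdh13, Cdh6 and Cdh10. The WT libraries had the same order in Cdh2, Cdh4, Cdh11 and Cdh12, whose cerebellar values overlapped between the genotypes. Of 5 markers of forebrain interneurons, 3 were lower in SCA1 KI cerebellum (Sst, Vip and Npy), with sums of 1540 to 2262 in WT and 912 to 987 in SCA1 KI, and 1 marker was at 0 in SCA1 KI library 3. Of 6 oligodendrocyte markers 0 passed with limma or edgeR, 5 were lower at an unadjusted p under 0.05 and 3 passed as lower with DESeq2, with sums of 178046 to 266831 in WT, library 2 the highest, and 152414 to 152494 in SCA1 KI. Of 5 endothelial markers 0 passed with limma, edgeR or DESeq2 or at an unadjusted p under 0.05, with sums of 5598 to 6436 in WT and 5167 to 5857 in SCA1 KI. Of 6 astrocyte markers 1, Aldh1l1 (LFC -0.27), was lower, with sums of 101399 to 105835 in WT and 91676 to 95056 in SCA1 KI, and DESeq2 added Gja1. Of 6 microglial markers 1, P2ry12 (LFC -0.46), was lower, with sums of 3073 to 4270 in WT and 2840 to 2998 in SCA1 KI. For microglia edgeR and DESeq2 each called 2 as lower, in DESeq2 P2ry12 and Tmem119. Of 7 striatal markers 1, Drd1a (LFC -1.52), was lower, with sums of 8718 to 10232 in WT and 7760 to 8152 in SCA1 KI. Among the striatal markers edgeR called 0, and DESeq2 called 2 as lower, Drd1a and Drd2. Of 5 choroid plexus markers 0 passed with limma, edgeR or DESeq2 or at an unadjusted p under 0.05, and their sums were uneven within both groups, at 21810, 72198 and 19401 in WT libraries 2, 4 and 6 and 821, 25039 and 75165 in SCA1 KI libraries 1, 3 and 5. The part of these tissues and cells in the cadherin results was not tested. Without WT library 2 the LFC of Cdh9 was -1.91 (adjusted p = 0.000128). That fit keeps WT libraries 4 and 6, whose thalamus and midbrain sums of 4984 and 6786 also exceeded the 1494 to 1880 of SCA1 KI. In bulk tissue, less of a neighbouring tissue in the library, fewer cells of a type and less RNA per cell cannot be told apart.

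**Figure D3:**
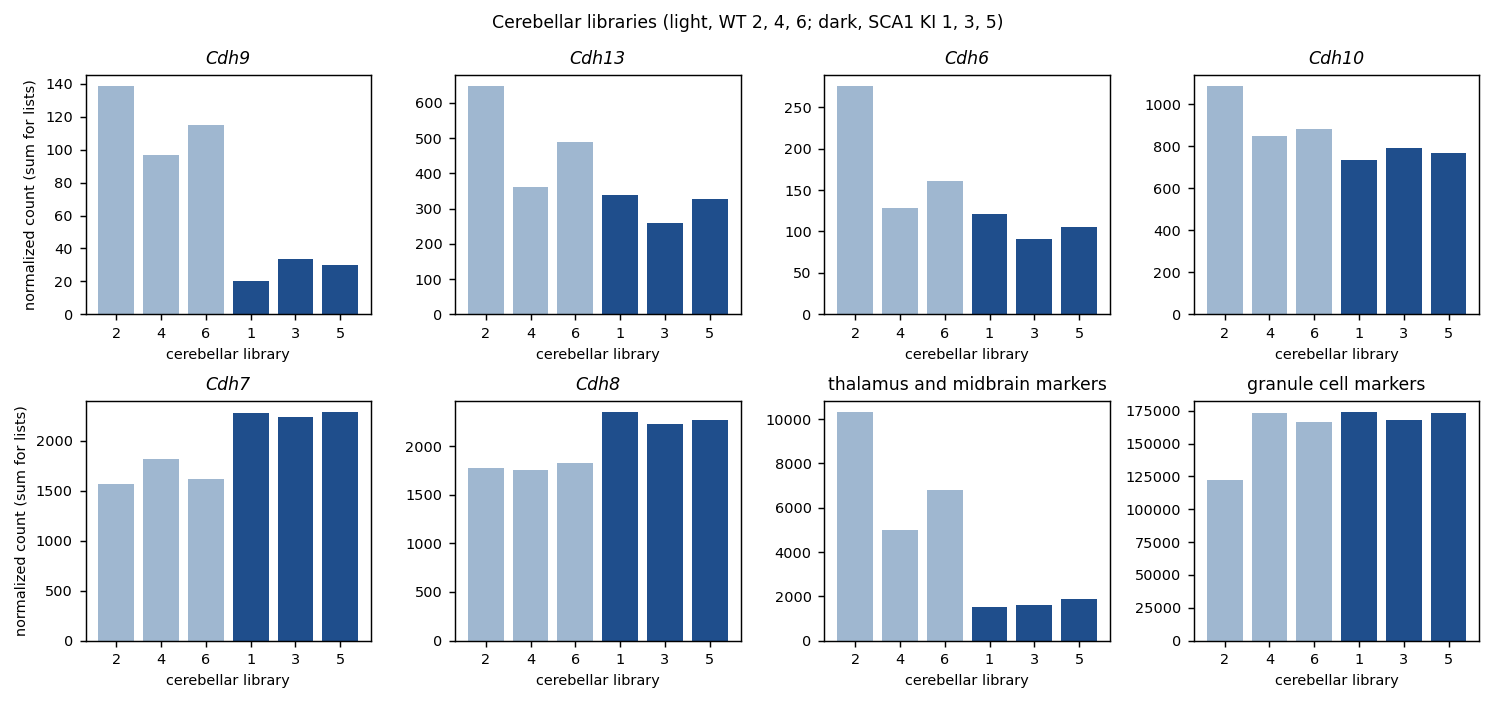
Normalized counts in the 6 cerebellar libraries for 6 cadherins, and sums for markers of thalamus and midbrain and of cerebellar granule cells. Bars are single libraries (light, WT; dark, SCA1 KI) and every y axis starts at 0. WT library 2 is highest for Cdh9, Cdh13, Cdh6, Cdh10 and the thalamus and midbrain markers (10316) and lowest for the granule cell markers (122610). It is also highest for Cdh2, Cdh4, Cdh11 and Cdh12, which are not drawn.

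Cdh7 and Cdh8 were the members that rose in the cerebellum. Cdh7, which is expressed in subdivisions of the developing hindbrain and cerebellum, lies on chromosome 1 from 109982431 to 110140157 (plus strand). Its normalized counts were 1571, 1816 and 1621 in WT cerebellum libraries 2, 4 and 6 and 2277, 2244 and 2287 in SCA1 KI libraries 1, 3 and 5. All SCA1 KI values exceeded all WT values, and they were closer together. The LFC was 0.45 (standard error 0.07, adjusted p = 0.00266), and Cdh7 passed in all 9 fits on all libraries and in all 12 with 1 library left out (0.40 to 0.51). In the cortex it had 763, 739 and 706 in WT and 825, 736 and 788 in SCA1 KI, with overlapping ranges and an LFC of 0.09 (95% interval -0.06 to 0.24). The effects differed between the regions by -0.36 (standard error 0.10, adjusted p = 0.0453), cortex minus cerebellum. This difference did not pass with edgeR (adjusted p = 0.0662) and passed in 3 of the 12 fits that left out a library, those without WT cerebellum library 4 (adjusted p = 0.0215), SCA1 KI cortex library A (adjusted p = 0.0308) or WT cortex library D (adjusted p = 0.0441).

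Cdh8, which contributes to the wiring of cortical and striatal neurons, lies on chromosome 8 from 99024471 to 99416471 (minus strand), and 23 bp of its exons overlap Gm15679. It had 1774, 1759 and 1824 normalized counts in WT cerebellum libraries 2, 4 and 6 and 2351, 2231 and 2273 in SCA1 KI libraries 1, 3 and 5. The groups were far apart next to the spread within each. The LFC was 0.36 (standard error 0.07, adjusted p = 0.0131). It passed in all 9 fits on all libraries and in 11 of 12 that left out a library, with an adjusted p of 0.0692 and an LFC of 0.33 without SCA1 KI cerebellum library 1. In the cortex the WT values of 1769 to 2166 enclosed the SCA1 KI values of 1852 to 2071, with an LFC of 0.01 (95% interval -0.15 to 0.17). The difference between the regions, -0.35 (95% interval -0.57 to -0.12), did not pass (adjusted p = 0.0576).

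The promoter window of Cdh8 is shown as that of a gene that was higher in the SCA1 KI cerebellum. Capitals mark its GC box (GGGCGG, either strand), a motif that 32.7% of all windows held. The window of Cdh6 held 2 matches to the same motif, and those of Cdh7, Cdh9, Cdh10 and Cdh12 held 0.
Cdh8, chr8:99416472-99416721, minus strand: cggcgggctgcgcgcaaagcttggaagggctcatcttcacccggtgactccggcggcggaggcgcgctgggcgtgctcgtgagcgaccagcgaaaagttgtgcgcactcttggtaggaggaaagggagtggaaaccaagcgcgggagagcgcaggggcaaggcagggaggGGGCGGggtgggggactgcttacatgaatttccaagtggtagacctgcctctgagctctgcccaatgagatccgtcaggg
Its GC content was 64.4%, against 51.2% for the window of Cdh6, 48% for the full window of Cdh9 and a median of 52.4% over all windows. The windows of Cdh7 and Cdh12 lie inside the annotated genes, as that of Cdh10 does, and are not shown. None of the 8 windows held the cAMP response element TGACGTCA (1.55% of all windows), the TATA box TATAAA (12.4%) or the E-box CACGTG (6.02%).

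Markers of cerebellar cells were counted in the same libraries. Of 6 granule cell markers 0 passed, also at an unadjusted p under 0.05 and with edgeR and DESeq2, and their sum was 122610, 173144 and 166550 in WT libraries 2, 4 and 6 and 168003 to 173935 in SCA1 KI. Of 7 Purkinje cell markers 1 passed, Rgs8, with a fall of 0.62, and DESeq2 called 2 as lower, Rgs8 and Slc1a6. All 7 had a negative LFC, from -0.62 to -0.19 with a median of -0.30. Pcp2, Calb1, Slc1a6, Rgs8 and Ppp1r17 lay lower in every SCA1 KI cerebellar library than in every WT one. The Purkinje cell sums were 330619 to 412252 in WT and 291639 to 328699 in SCA1 KI. Of 4 markers of cerebellar interneurons 1 was lower (Nxph1). Without WT library 2, the library with the lowest granule cell sum, the LFC was 0.40 for Cdh7 (adjusted p = 0.0111) and 0.35 for Cdh8 (adjusted p = 0.0408). The part of these cell types in the results for Cdh7 and Cdh8 was not tested.

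In the cortex the members that changed were Cdh12 and Cdh11. Cdh12 (brain cadherin), a type II cadherin found mainly in neurons, spans 1140 kb of chromosome 15 (20449265 to 21589533, plus strand), and 198 bp of its exons overlap Gm49685. Its normalized counts were 1914, 2024 and 1659 in WT cortex libraries B, C and D and 1177, 1552 and 1175 in SCA1 KI libraries A, E and F. All SCA1 KI values were below all WT values, with library E nearest to them. The LFC was -0.53 (standard error 0.11, adjusted p = 0.00585), and it passed in all 9 fits on all libraries and in all 12 with 1 left out (-0.66 to -0.46). In the cerebellum Cdh12 had 759, 675 and 712 in WT and 645, 729 and 656 in SCA1 KI, which overlapped (LFC -0.08, 95% interval -0.32 to 0.16). The effects of genotype in the 2 regions differed by -0.45, which did not pass (adjusted p = 0.112).

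Cdh11 (OB-cadherin), found in mesenchymal cells such as meningeal fibroblasts as well as in neurons, lies on chromosome 8 from 102632095 to 102785642 (minus strand). It had 3030, 3595 and 2892 normalized counts in WT cortex libraries B, C and D and 2057, 2630 and 2450 in SCA1 KI libraries A, E and F. The groups did not overlap, but library A was well below the other SCA1 KI libraries and library C well above the other WT libraries. The LFC was -0.42 (standard error 0.11, adjusted p = 0.0164). Without library A it was -0.32 (adjusted p = 0.0576) and without library C -0.32 (adjusted p = 0.0749), and a fit of the cortex alone gave an adjusted p of 0.0509. In the cerebellum its WT values of 1265 to 1499 and SCA1 KI values of 1217 to 1370 overlapped (LFC -0.06, 95% interval -0.29 to 0.17). The difference between the regions, -0.35, did not pass (adjusted p = 0.190).

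Several marker lists moved in the same cortical libraries. Of 8 markers of cortical excitatory neurons, 3 were lower in SCA1 KI (Rorb, Cux2 and Slc17a7), with sums of 89180 to 91141 in WT and 59907 to 70992 in SCA1 KI. DESeq2 called 4 of them, with Tbr1 added. Of 6 astrocyte markers 3 were lower, with sums of 50556 to 55635 in WT and 33620 to 43869 in SCA1 KI. Of 5 markers of forebrain interneurons 1, Npy, was lower, with sums of 11251 to 12615 in WT and 6774 to 7779 in SCA1 KI. At an unadjusted p under 0.05 and with edgeR 3 of them were lower, and DESeq2 called 2, Npy and Vip. Of 7 striatal markers 2 were lower (Ppp1r1b and Penk), and 3 of 7 thalamus and midbrain markers were higher (Pou4f1, Shox2 and Tal1), with sums of 1924 to 2261 in WT, where 1 or 2 of them were at 0 in each library, and 3008 to 3834 in SCA1 KI. DESeq2 called Ppp1r1b alone of the striatal markers and 4 of the thalamus and midbrain markers, with Gata3 added. Of 6 markers of meningeal fibroblasts 0 passed with limma, edgeR or DESeq2 or at an unadjusted p under 0.05, with sums of 4271 to 5194 in WT and 3723 to 6003 in SCA1 KI. The part of these cell types in the results for Cdh12 and Cdh11 was not tested.

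The type I cadherins showed no genotype difference that passed. Cdh2, the N-cadherin of synapses and of the neuroepithelium, is on chromosome 18 (16588877 to 16809246, minus strand). It had 5375, 4996 and 4967 normalized counts in WT cortex, and 4309, 5490 and 5131 in SCA1 KI cortex libraries A, E and F. In the cerebellum all 6 libraries lay between 4057 and 4192. The LFC was -0.05 in the cortex (95% interval -0.21 to 0.12) and 0.004 in the cerebellum (95% interval -0.16 to 0.17). These intervals leave room for changes of at most 0.21 on the log2 scale in either direction.

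Cdh4, the R-cadherin of retina and forebrain, is on chromosome 2 (179442431 to 179899373, plus strand). Its cortical values were 1245, 1215 and 1013 in WT and 463, 1048 and 1262 in SCA1 KI libraries A, E and F. Library A stood alone with less than any other library, while E and F lay among the WT values or above them. The LFC of -0.44 (95% interval -1.02 to 0.14) became -0.003 without library A. In the cerebellum the WT values of 966 to 1238 enclosed the SCA1 KI values of 1101 to 1177 (LFC 0.02, 95% interval -0.56 to 0.60). The limma fit shares 1 spread over the groups, so library A also widens this interval.

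Across the regions of WT mice, 7 members were higher in the cortex and 1 in the cerebellum. Among all tested genes 31% passed as higher and 30.7% as lower in WT cortex against WT cerebellum, and 69.9% had libraries that did not overlap. The members higher in the cortex were Cdh9 (LFC 2.42, standard error 0.18), Cdh6 (2.40, standard error 0.23), Cdh13 (1.88, standard error 0.18), Cdh10 (1.51, standard error 0.09), Cdh12 (1.38, standard error 0.11), Cdh11 (1.22, standard error 0.11) and Cdh2 (0.30, standard error 0.08), with adjusted p from 1.00e-08 for Cdh10 to 0.00329 for Cdh2. Cdh7 was lower in the cortex by -1.18 (standard error 0.07, adjusted p = 1.09e-08). These 8 members also had WT libraries that did not overlap between the regions. Cdh8 (LFC 0.13, 95% interval -0.02 to 0.29) and Cdh4 (LFC 0.03, 95% interval -0.55 to 0.61) did not pass.

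Levels of different genes can be set side by side only per length, here as normalized counts per kb of annotated exon. In WT cortex Cdh2 was highest (634 ± 28.2 per kb, SD, n = 3), followed by Cdh11 (356 ± 41.8 per kb) and by Cdh12 (296 per kb), Cdh10 (266 per kb) and Cdh8 (254 per kb), whose libraries overlapped from each to the next. Cdh9 (176 per kb), Cdh13 (160 per kb) and Cdh4 (160 per kb) came next and overlapped likewise, and Cdh6 (106 per kb) and Cdh7 (73.3 per kb) were lowest. In WT cerebellum the order was Cdh2 (513 ± 9.19 per kb), Cdh8 (231 ± 4.41 per kb) and then Cdh7 (166 per kb), Cdh4 (156 per kb) and Cdh11 (152 per kb), which overlapped. Below them came Cdh12 (113 per kb) and Cdh10 (93.5 per kb), and last Cdh13 (44.5 per kb), Cdh9 (33.0 per kb) and Cdh6 (20.9 per kb). By this measure Cdh7 was the lowest of the 10 in WT cortex and came after Cdh2 and Cdh8 in WT cerebellum. The order depends on the length used, because annotated exons can exceed the longest annotated transcript by an amount that differs between genes. Cdh7 has 10.037 kb of exon and a longest transcript of 4945 bases, Cdh6 has 9.024 kb and 8167 bases, and Cdh10 has 10.051 kb and 3765 bases. An order by transcript length was not made.

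In SCA1 KI cerebellum the first 3 per kb were again Cdh2 (515), Cdh8 (295) and Cdh7 (226), whose libraries did not overlap, and Cdh9 (7.90) was lowest in place of Cdh6 (11.7). In SCA1 KI cortex Cdh2 (617 per kb) remained first, and every other member overlapped its neighbour in the order, except that Cdh2 and Cdh10 (286 per kb) were separate. Cdh11 was at 267 per kb there and Cdh12 at 206 per kb. Cdh2 made up 24.1% to 27.9% of the summed level per kb of the 10 genes in the cortical libraries and 32.5% to 34.6% in the cerebellar libraries.

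**Figure D4:**
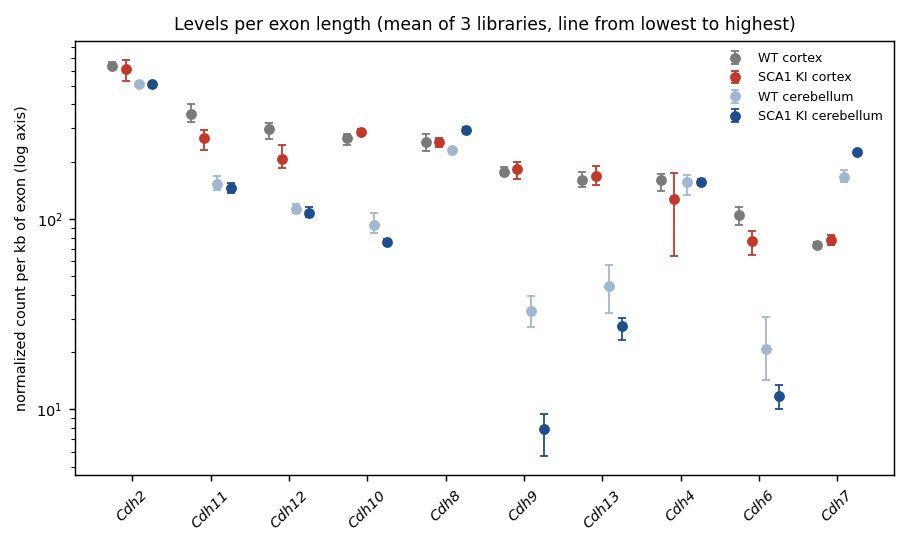
Normalized counts per kb of exon on a log axis, for the 4 groups, with genes in the order of WT cortex. Points are means of 3 libraries and lines run from the lowest to the highest library. Cdh7 is lowest in WT cortex (73.3) and higher in both cerebellar groups (166 and 226), and Cdh9 spans the widest range, from 184 in SCA1 KI cortex to 7.90 in SCA1 KI cerebellum.

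Other genes of cadherin adhesion were counted from lists. Among all tested genes 4.82% passed as higher and 10.8% as lower in SCA1 KI cortex, and 0.917% and 4.44% in SCA1 KI cerebellum. Of 9 other classical and type II cadherins, 2 were higher in SCA1 KI cortex, Cdh18 (LFC 0.51, adjusted p = 0.000216) and Cdh15 (LFC 1.04, adjusted p = 0.00348), and 1 was lower, Cdh22 (LFC -0.57, adjusted p = 0.0136). Cdh18 and Cdh22 share the binding group of Cdh7 and Cdh12, and Cdh15 is the M-cadherin of muscle and of cerebellar granule cells. In the cerebellum 0 of the 9 passed with limma or edgeR, 1 had an unadjusted p under 0.05 and 1, Cdh15, passed with DESeq2. Cdh15 had 1766 ± 226 normalized counts (SD, n = 3) in WT cerebellum and 48.0 ± 16.6 (SD, n = 3) in WT cortex. In WT mice, 6 of the 9 were lower in the cortex than in the cerebellum and 1 was higher. The genotype effect differed between regions for Cdh18 (0.48, adjusted p = 0.00666) and Cdh22 (-0.70, adjusted p = 0.0469), against 8.15% of all tested genes with such a difference. Among the 10 members 2 showed it, Cdh9 and Cdh7.

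Of 9 catenins, 3 were lower in SCA1 KI cortex, against 10.8% of all tested genes. None was higher there with limma, edgeR or DESeq2 or at an unadjusted p under 0.05. The 3 lower were Ctnnd2 (delta-catenin, a neuronal member of the p120 family, LFC -0.36, adjusted p = 0.00186), Ctnna2 (the neuronal alpha-catenin, LFC -0.32, adjusted p = 0.00286) and Arvcf, another p120 relative (LFC -0.26, adjusted p = 0.0378). DESeq2 called the same 3 as lower, and edgeR called 2. In the cerebellum 0 of the 9 passed with limma, edgeR or DESeq2, and 1 had an unadjusted p under 0.05. Ctnnb1, beta-catenin, which binds the tails of the classical cadherins, had an LFC of 0.07 in the cortex (95% interval -0.06 to 0.20) and -0.03 in the cerebellum (95% interval -0.16 to 0.10). The effect on Ctnnd2 differed between the regions by -0.46 (adjusted p = 0.00658).

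Nectins are adhesion molecules that join cadherins at adherens junctions through afadin. Of 7 listed genes of nectins, afadin and linkers to actin, 6 were tested and 2 were lower in SCA1 KI cortex, nectin-3 (Pvrl3 in the table, LFC -0.64, adjusted p = 0.000524) and nectin-1 (Pvrl1, LFC -0.85, adjusted p = 0.0490), of which DESeq2 called nectin-3 alone. Nectin-1 had 3324 ± 1065 normalized counts (SD, n = 3) in WT cortex and 1875 ± 708 (SD, n = 3) in SCA1 KI cortex. The libraries of the genotypes overlapped there for nectin-1 but not for nectin-3. The effect on nectin-3 differed between the regions by -0.81 (adjusted p = 0.00284). In the cerebellum 0 of the 6 passed with limma or edgeR, 1 had an unadjusted p under 0.05, and Plekha7 passed with DESeq2. Of 6 genes of the enzymes that mature and cleave cadherins (Furin, Adam10 and parts of gamma-secretase), 0 passed in either region with limma, edgeR or DESeq2. At an unadjusted p under 0.05 there were 0 in the cortex and 2 in the cerebellum.

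Of 10 delta-protocadherins, relatives of the cadherins that do not bind beta-catenin, 1 was higher in SCA1 KI cortex, Pcdh11x (LFC 0.82, adjusted p = 0.0233), and 2 were lower, Pcdh1 (LFC -0.46, adjusted p = 0.0283) and Pcdh7 (LFC -0.57, adjusted p = 0.0283). In the cerebellum 3 were lower, Pcdh7 (LFC -0.78, adjusted p = 0.0133), Pcdh8 (LFC -0.80, adjusted p = 0.0303) and Pcdh19 (LFC -0.71, adjusted p = 0.0346), and DESeq2 called 4 as lower, with Pcdh18 added (limma LFC -0.72, adjusted p = 0.0813). Pcdh7, Pcdh8 and Pcdh19 had WT cerebellar SDs of 962, 97.6 and 227 around means of 3124, 251 and 723 normalized counts, wider than the SCA1 KI SDs of 83.8, 11.0 and 23.1. In the cortex the libraries of the genotypes overlapped for Pcdh1 but not for Pcdh7 or Pcdh11x. The effect of genotype differed between the regions for Pcdh11x, by 1.19 (adjusted p = 0.0359). In WT mice 7 of the 10 were higher in the cortex.

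The genes whose pattern over the 12 libraries was most like that of each member that passed were ranked by Pearson's r of log2(normalized count + 1), as a description that contains the differences between region and genotype. Cdh13 was closest to Pcdh8 (r = 0.997), Scn3b and Basp1, and Cdh12 to Nrcam (r = 0.994), Gpr133 and Sort1. Cdh9 was closest to Krt77 (r = 0.996), Nr2e1 and Lrfn2, Cdh7 to Rad21 (r = 0.996), Ss18 and Ppp6r3, and Cdh11 to Smim13 (r = 0.997), Wwc1 and Tspyl5. Cdh8, which differed little between the regions, had the loosest match, with Mtmr1 (r = 0.918), Arid4a and Stam2.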

How the data were processed

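The authors mapped paired-end reads to mm10 (STAR), obtained counts per gene (featureCounts) and divided the counts by DESeq2 size factors. The deposited values are these normalized counts, whose signal was used as deposited. Every library gave 100% of values as whole reads (tolerance 0.1 read), so reads were recovered for edgeR 4.0.16 and DESeq2 1.42.0. Whether counting used strand is not given in the sources used here, so reads of overlapping genes could not be separated. The replicate numbers of the labels are not in the column names. Libraries of a group differed by more than counting error (a chi-square of 7.54 to 36.6 for each gene tested), and nothing states that they came from separate mice, so p-values measure the spread between these libraries.

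The 10 members and all gene and marker lists were chosen with earlier results of these data known. Group means were compared in R 4.3.3 with limma 3.58.1 (moderated by empirical Bayes, with a mean trend), using log2(normalized count + 1), which understates the LFC of low genes, over 12 libraries and 4 group means, for rows with a mean of at least 10 (390 of 15759 fell below). Adjusted p are Benjamini-Hochberg values over all tested genes. Tests are 2-sided. All members were named, with up to 3 genes of each list in each direction by adjusted p. The 3 genes nearest to each member that passed were also named, and single markers where a list moved. Ctnnb1, the markers named without passing with limma and the genes named as passing with DESeq2 alone were added after their values were seen. GENCODE vM21 (GRCm38) gave coordinates, exon lengths and overlaps (15009 of 15758 symbols matched), and promoter windows from RefSeq. Alternatives were a pseudocount of 0.5 or 5, a filter at a mean of 100 or none, each region on its own, centring on the region's median, removal of each library's trend on length and GC content, edgeR, DESeq2, an LFC limit of 0 or 1, and 12 fits without 1 library. The limma code was tested on simulated data.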

Additional observations from a re-analysis of the deposited data

Results flagged for a closer look

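The genotype effect differed between cortex and cerebellum for 2 of the 10 cadherins by the interaction of the limma fit. For Cdh9 the cortical LFC exceeded the cerebellar LFC by 2.10 (adjusted p = 0.000665), with all 3 SCA1 KI cerebellar libraries below all WT cerebellar libraries and overlapping cortical libraries. Of 7 tested markers of thalamus and midbrain, 6 passed the same test in this direction and 0 in the other. The median difference of the 7 was 4.17, and 8.15% of all tested genes passed in either direction. The part of that tissue in the result for Cdh9 was not tested. For Cdh7 the cortical LFC minus the cerebellar LFC was -0.36 (adjusted p = 0.0453), with all 3 SCA1 KI cerebellar libraries above all WT ones. Region and sequencing run cannot be told apart.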

How the results depend on the processing

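No paired analysis was possible because the columns of the table carry no replicate number of the labels. The members' LFCs were compared with the main fit under all alternatives except the LFC limits of 0 and 1. Of these LFCs, 760 kept their direction and side of the threshold, 15 newly passed, 28 no longer passed and 17 changed sign. None of the last came from a value that had passed. The 2 members called in the cortex became 1 (Cdh12) with the cortex fitted on its own and 0 with an absolute LFC over 1, and 1 to 3 when 1 library was left out (Cdh12 alone without SCA1 KI cortex library A or WT cortex library C, and Cdh6 added without WT cerebellum library 2). The 4 called in the cerebellum became 6 with DESeq2 (Cdh6 and Cdh10 added), 3 (Cdh13 lost) with no filter on low values, with each region fitted on its own and with centring on the median of the region (adjusted p of Cdh13 0.0505, 0.103 and 0.0551), 1 (Cdh9) with an absolute LFC over 1 and 2 to 6 when 1 library was left out (Cdh7 and Cdh9 without SCA1 KI library 1, and Cdh6 and Cdh10 added without WT library 4). The 2 with a difference between regions became 4 with the trend on length and GC content removed (Cdh8 and Cdh12 added), 1 with edgeR (Cdh9), 5 with DESeq2 (Cdh8, Cdh10 and Cdh13 added), 1 with an absolute LFC over 1 and 1 to 4 when 1 library was left out. The 8 that differed between WT regions became 7 with an absolute LFC over 1 (Cdh2 lost) and were 8 in every other fit, 1 library left out included. The cause was not tested.

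Signs changed in small values. With the trend on length and GC content removed, the LFC of Cdh2 in the cortex was 0.016 and that of Cdh4 between WT regions -0.043. When 1 library was left out, the LFC in the cortex ranged from -0.12 to 0.055 for Cdh2, -0.067 to 0.079 for Cdh8, -0.0013 to 0.14 for Cdh9 and -0.032 to 0.14 for Cdh13, and in the cerebellum from -0.011 to 0.013 for Cdh2, -0.092 to 0.087 for Cdh4 and -0.11 to 0.011 for Cdh11. The difference between regions ranged from -0.12 to 0.051 for Cdh2 and -0.011 to 0.54 for Cdh6, and the WT regional LFC of Cdh4 from -0.079 to 0.13. Calls over the 15369 tested genes split into 741 up and 1661 down for the cortical genotype comparison and into 141 up and 683 down for the cerebellar one. With the trend on length and GC content removed, which leaves the 14639 genes with both values, the splits were 1041 and 1319 in the cortex and 530 and 589 in the cerebellum, so the genes counted differ as well.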
